A study of Mus musculus with 6 samples.

Results

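Primitive endoderm is the extraembryonic lineage that forms next to the pluripotent epiblast, and the genes described here are 8 of its transcription factors and 1 of its surface receptors: *Gata4*, *Gata5*, *Gata6*, *Sox7*, *Sox17*, *Sox18*, *Foxa2*, *Hnf4a* and *Pdgfra*. They were found by gene symbol in a table of 54715 genes, in which each of the 9 has 1 row. RNA-Seq was performed on 3 libraries of WT ASCs and 3 libraries of *Bdh2*-knockout ASCs. ASCs are advanced embryonic stem cells, a mouse pluripotent line kept in ABCL medium, which supplies Activin A and BMP4 together with CHIR99021 and LIF, and both genotypes came from a cross of a female 129/sv with a male GOF/GFP mouse. The knockout carries *Bdh2*-/-, made with CRISPR/Cas9 and sgRNAs near the start codon of *Bdh2*, a short-chain dehydrogenase gene of siderophore synthesis. The study went on with 1 knockout ASC clone, and whether the 3 knockout libraries are separate cultures of it is not stated, so p-values measure the spread between these libraries. Whether the WT line also went through transfection and cloning is not stated. These are bulk samples, in which more cells of a type cannot be told apart from more RNA per cell.

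In the inner cell mass, GATA6 marks cells that turn away from the epiblast fate, FGF signalling through ERK favours them, and PDGFRA appears on their surface. GATA4, SOX17 and SOX7 follow as the cells become epithelial, and the mature layer splits into visceral endoderm, which takes up and secretes proteins, and parietal endoderm, which lays down basement membrane. FOXA2 and HNF4A, both known for their part in liver, also act in visceral endoderm, whereas SOX18 and GATA5 are better known from blood vessels and from heart and gut. SOX7, SOX17 and SOX18 form the SOXF subgroup, and FOXA2 and SOX17 are shared with definitive endoderm.

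RefSeq promoter sequences were on hand for 4 of the 9 genes, and those of 3 are shown because these genes moved in different ways: *Pdgfra* and *Foxa2* were higher in *Bdh2*-knockout ASCs and *Hnf4a* was lower. All coordinates are those of GRCm38, of patch release p6 for the promoters. Letters in capitals mark a match to a GATA hexamer (the letters GATAA or the letters GATAG, preceded by A or by T) or to a SOX hexamer (the letters CAAAG or the letters CAATG, again preceded by A or by T), on either strand. The hexamers do not share letters where they are shown. The 250 bases before the *Pdgfra* start lie at chr5:75152001-75152250 on the plus strand. Those before the outermost *Foxa2* start lie at chr2:148046970-148047219 on the minus strand, and those before an inner *Foxa2* start at chr2:148045465-148045714, outside the exons that GENCODE gives this gene. For *Hnf4a* a stretch at chr2:163506793-163506822 on the plus strand is shown, which crosses the annotated start of the gene.
Pdgfra: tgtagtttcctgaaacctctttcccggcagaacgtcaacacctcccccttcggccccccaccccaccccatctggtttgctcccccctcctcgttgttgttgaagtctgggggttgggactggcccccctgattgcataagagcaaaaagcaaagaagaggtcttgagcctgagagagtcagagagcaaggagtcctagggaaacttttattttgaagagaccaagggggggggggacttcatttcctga
Foxa2 outermost start: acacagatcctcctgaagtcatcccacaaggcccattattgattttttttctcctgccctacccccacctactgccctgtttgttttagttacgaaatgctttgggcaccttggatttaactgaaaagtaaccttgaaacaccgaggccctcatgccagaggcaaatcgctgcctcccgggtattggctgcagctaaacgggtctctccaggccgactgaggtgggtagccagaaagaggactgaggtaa
Foxa2 inner start: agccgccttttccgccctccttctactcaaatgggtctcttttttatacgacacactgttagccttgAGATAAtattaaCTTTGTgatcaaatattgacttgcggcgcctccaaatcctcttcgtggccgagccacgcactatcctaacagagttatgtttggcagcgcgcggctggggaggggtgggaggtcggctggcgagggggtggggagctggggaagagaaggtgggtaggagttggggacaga
Hnf4a: gaagaatcaataAGATAAccgggcggggtg
The *Pdgfra* window and the outermost *Foxa2* window hold 0 of these hexamers. A second inner *Foxa2* window, at chr2:148045949-148046198 and not shown, also holds 0. The inner *Foxa2* window that is shown holds AGATAA, which begins 183 bases before the start, and CTTTGT, the SOX hexamer ACAAAG on the other strand, which begins 171 bases before it. In *Hnf4a* the hexamer AGATAA begins 52 bases before the outermost RefSeq start. An inner *Hnf4a* window, at chr2:163546905-163547154 and not shown, holds 0 of these hexamers. Of 32851 mouse promoter windows of 250 bases, 26.5% hold a GATA hexamer and 39.4% a SOX hexamer, so such matches are common. They describe the letters, and no binding was measured here.

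The libraries held 18927748 to 28333541 counts, at which 3 counts correspond to 0.106 to 0.158 CPM (the count scaled to the library size), taken as the smallest level that counting can show. Levels are given in CPM on the TMM-scaled library size. Errors are SDs of 3 libraries unless another is named. For *Bdh2* itself the WT level was 9.42 ± 1.10 CPM, against 5.43 ± 0.484 CPM in the knockout (log2 fold change -0.79, standard error 0.12, adjusted p = 2.46e-04, edgeR). The counts cover the whole gene, not the deleted stretch alone. The libraries differed in transcripts of adult hepatocytes, which are given beside *Hnf4a*. The pluripotency genes listed as markers of ASCs were all detected, and their summed level was 6826 to 6905 CPM in WT ASCs and 6752 to 6963 CPM in *Bdh2*-knockout ASCs.

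**Figure D1:**
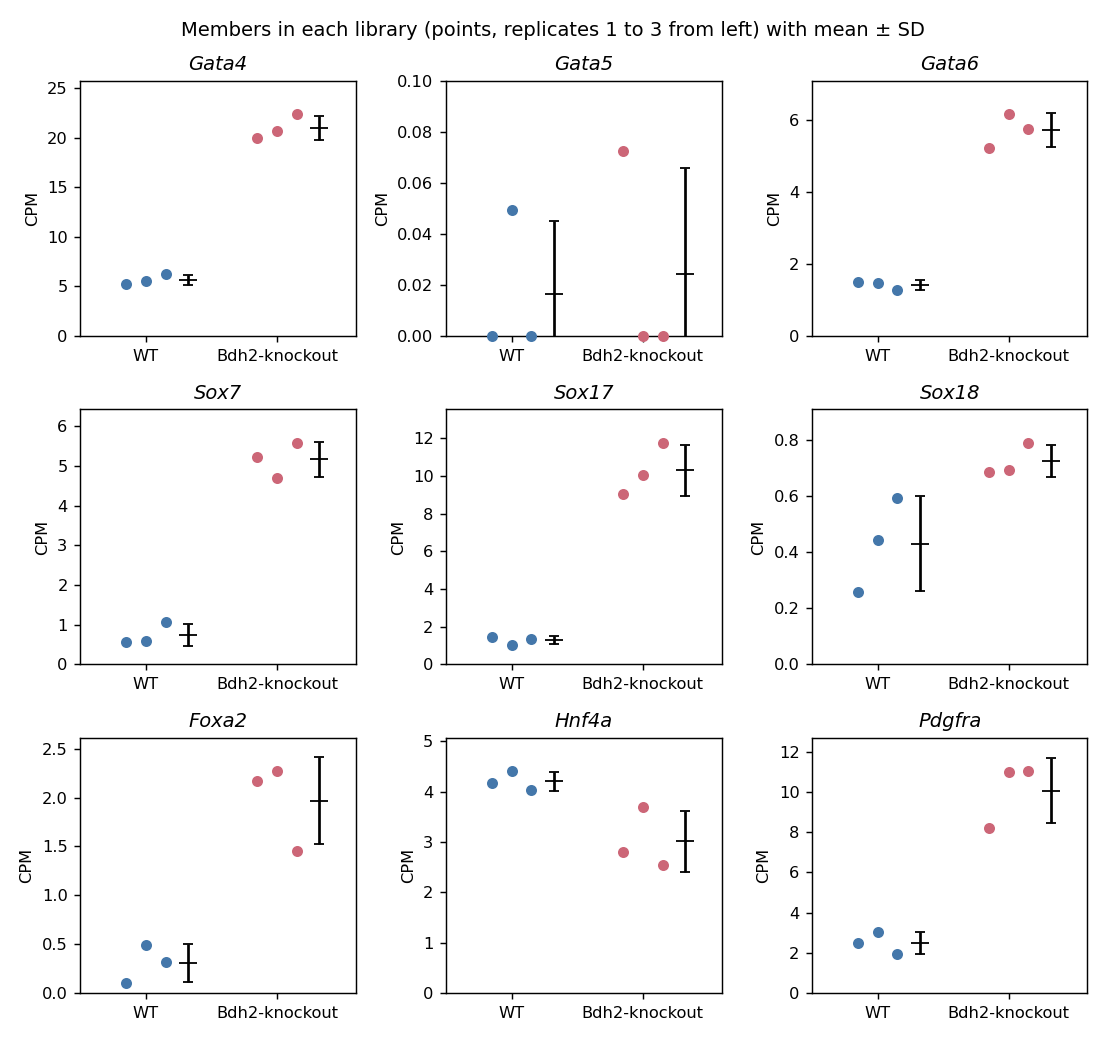
Level of each of the 9 genes in each library, in CPM on linear axes that start at 0 and differ between panels. Blue points are WT ASCs and red points are *Bdh2*-knockout ASCs, replicates 1 to 3 from left to right, with the mean and SD beside them. In 7 panels every knockout point is above every WT point, in the *Hnf4a* panel every knockout point is below, and in the *Gata5* panel every point stands for at most 2 counts.

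Of the 9 genes, 8 had enough counts to be tested, 6 were higher in *Bdh2*-knockout ASCs (*Gata4*, *Gata6*, *Sox7*, *Sox17*, *Foxa2* and *Pdgfra*), 1 was lower (*Hnf4a*), and *Sox18* did not pass the test. *Gata5* was close to silent in both genotypes. By edgeR's quasi-likelihood test at an adjusted p under 0.05, 21.0% of the 16758 tested genes were higher and 20.8% were lower, so a call by itself is common in this comparison. The size of the change was less common. A log2 fold change of at least 1 was found in 363 of the tested genes, or 2.17%, the 6 named above among them. The knockout values lay above all WT values in 26.3% of tested genes and below all of them in 26.1%. *Foxa2* and *Sox18* passed the filter on low counts through the knockout libraries, since 1 and 2 WT libraries, respectively, reached its level of 0.406 CPM. Among the other genes described below that were called, *Ihh*, *Srgn*, *Lhx1*, *Rbbp8nl*, *Shisa6* and *Klb* likewise passed through the knockout libraries, and *Tnnt2*, *Apoh*, *Serpina1a*, *Cyp2e1* and *Foxc2* through the WT libraries.

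*Gata4*, a zinc finger factor of the extraembryonic endoderm and of the heart, had the highest level per length of these genes. It was counted 101, 111 and 158 times in WT replicates 1, 2 and 3, which is 5.20, 5.49 and 6.25 CPM. In *Bdh2*-knockout ASCs the counts were 551, 565 and 536, or 19.97, 20.7 and 22.3 CPM. The genotypes did not overlap, and within each the libraries lay close together, with a coefficient of variation of 9.58% in WT ASCs and 5.77% in *Bdh2*-knockout ASCs. The log2 fold change was 1.89 (standard error 0.09, adjusted p = 2.18e-08), or 3.70-fold with a 95% interval of 3.21 to 4.25.

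*Gata6*, the factor that acts first in this lineage, had counts of 29, 30 and 32 in WT ASCs, and of 144, 168 and 138 in the knockout libraries. This is 1.49, 1.48 and 1.26 CPM against 5.22, 6.15 and 5.75 CPM. The change was 2.02 on the log2 scale (standard error 0.17, adjusted p = 1.51e-06), with a 95% interval of 1.66 to 2.37 that contains the value of *Gata4*. Compared per length, in TPM (the count scaled to the listed length and to the library), *Gata4* stood above *Gata6* in every library. The log2 ratio of *Gata4* to *Gata6* was 2.52 ± 0.269 in WT ASCs and 2.40 ± 0.114 in the knockout, a difference within the spread of the libraries (two-sided exact permutation test, p = 0.7).

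*Gata5* had counts of 0, 1 and 0 in WT ASCs, and of 2, 0 and 0 in the knockout libraries. The pooled counts allow at most 0.0858 CPM in WT ASCs and 0.0916 CPM in *Bdh2*-knockout ASCs (upper bounds of exact 95% Poisson intervals, which cover counting error only). No fold change is given, because both genotypes are below the level of 3 counts per library. Of the 3 genes of the GATA4, GATA5 and GATA6 subgroup, therefore, 2 rose and 1 was not detectable above counting error.

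The remaining genes of the GATA group did not show increases of this size. *Gata2*, known from blood formation, was 4.30 ± 0.624 CPM in WT ASCs and 4.08 ± 0.502 CPM in *Bdh2*-knockout ASCs (log2 fold change -0.08, adjusted p = 0.722, 95% interval -0.42 to 0.27). *Gata3*, a trophectoderm and T cell factor, gave -0.33 on the log2 scale (adjusted p = 0.50), and *Gata1*, the erythroid factor, was too low to be tested, at 0.304 ± 0.0543 and 0.195 ± 0.0920 CPM. The GATA cofactors of the FOG family, *Zfpm1* and *Zfpm2*, had log2 fold changes of -0.17 (adjusted p = 0.149) and 0.50 (adjusted p = 0.0643). *Trps1*, a GATA-type repressor, was lower by a small amount (log2 fold change -0.22, adjusted p = 0.0239), a call that was lost in 6 of 15 alternative analyses. Of these 5 tested relatives, 0 were higher and 1 was lower, beside 21.0% and 20.8% of all tested genes. The median log2 fold change was -0.17, against -0.01 over all tested genes. In 3 of 15 alternative analyses 1 relative was called higher. Of all 11 tested genes annotated to the GATA-type zinc finger family, 4 were higher (36.4%), *Gata4* and *Gata6* among them, and 1 was lower. The median log2 fold change of that family was 0.08.

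Of the summed TPM of the 6 Gata genes, *Gata4* and *Gata6* held 60.9%, 53.1% and 58.3% in WT replicates 1 to 3. In *Bdh2*-knockout replicates 1 to 3 they held 83.7%, 83.9% and 87.9%. The sum itself was 7.75 to 9.35 TPM in WT ASCs and 20.8 to 22.9 TPM in *Bdh2*-knockout ASCs.

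**Figure D2:**
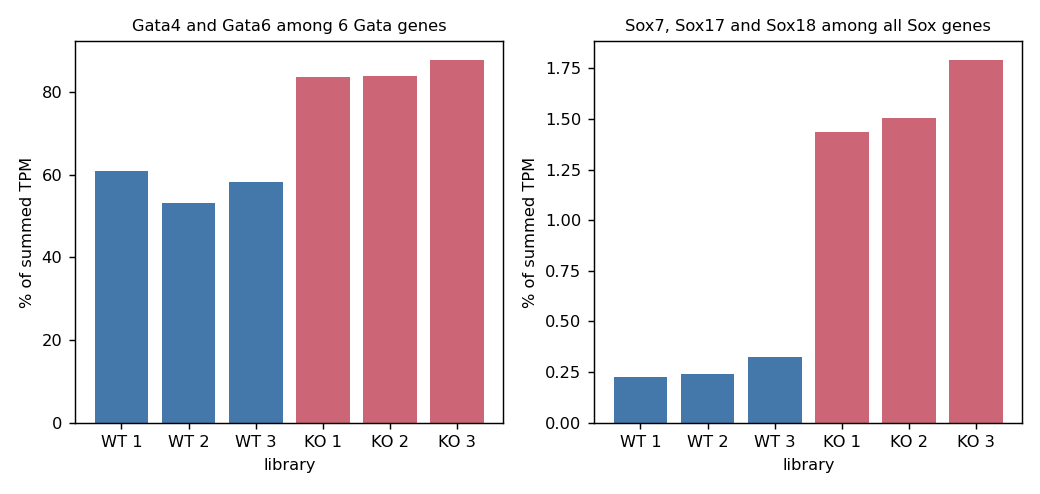
Share of the summed TPM of a gene family held by the genes described, one bar per library, WT ASCs in blue and *Bdh2*-knockout ASCs (KO) in red, with axes that start at 0. On the left *Gata4* and *Gata6* hold 53.1% to 60.9% in WT ASCs and 83.7% to 87.9% in *Bdh2*-knockout ASCs, and on the right the SOXF genes hold 0.226% to 0.322% and 1.44% to 1.79%.

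*Sox17*, a SOXF factor of both primitive and definitive endoderm, showed the largest fold change of the 9 genes in the fit of all 6 libraries. It was counted 28, 21 and 34 times in WT ASCs, or 1.44, 1.04 and 1.34 CPM. In *Bdh2*-knockout ASCs it was counted 250, 274 and 282 times, or 9.06, 10.04 and 11.8 CPM. The lowest knockout library was thus well above the highest WT library. The log2 fold change was 3.00 (standard error 0.16, adjusted p = 4.77e-08), or 8.01-fold with a 95% interval of 6.27 to 10.2, the 13th largest increase among tested genes. Its first place among the 9 was not fixed. Without WT replicate 3 *Sox7* had 3.14 against 3.05 for *Sox17*, and without WT replicate 2 *Foxa2* had 3.13 against 2.88.

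*Sox7*, its SOXF relative in the same lineage, had counts of 11, 12 and 27 in WT ASCs, and of 144, 128 and 134 in the knockout libraries. WT replicate 3, at 1.07 CPM, was above the other WT libraries, at 0.566 and 0.594 CPM, while the knockout libraries ranged from 4.69 to 5.59 CPM. For *Sox7* the log2 fold change was 2.75 (standard error 0.23, adjusted p = 1.67e-06), a rank of 17 among tested genes. Per length *Sox17* and *Sox7* were close, with a log2 TPM ratio of 0.30 ± 0.508 in WT ASCs and 0.46 ± 0.168 in *Bdh2*-knockout ASCs (two-sided exact permutation test, p = 0.7).

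*Sox18*, the SOXF gene of vessels, gave 5, 9 and 15 counts in the WT libraries, and 19, 19 and 19 in the knockout. Its levels were 0.257, 0.445 and 0.593 CPM against 0.689, 0.696 and 0.792 CPM. All knockout values were above all WT values, yet WT replicate 3 came within 0.0958 CPM of the lowest of them. The test was not passed (log2 fold change 0.71, standard error 0.36, adjusted p = 0.132), and its 95% interval ran from -0.07 to 1.48. The intervals of *Sox17* and *Sox7* lie above that range, from 2.65 to 3.36 and from 2.26 to 3.24, although the differences between genes were not themselves tested. With each library left out in turn, the log2 fold change of *Sox18* ranged from 0.46 to 1.03. Without WT replicates 1 and 2 and knockout replicate 2, the libraries richest in hepatocyte transcripts, it was 0.31. That fit keeps 1 WT library, replicate 3, which had the highest WT level of *Sox18*.

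Per length, the Sox gene with the highest level was *Sox2*, the pluripotency factor, at 401 ± 22.1 CPM in WT ASCs and 366 ± 12.97 CPM in *Bdh2*-knockout ASCs (log2 fold change -0.13, adjusted p = 0.0578). On the per-length scale *Sox17* was 0.116% to 0.159% of *Sox2* in WT ASCs and 1.03% to 1.42% in *Bdh2*-knockout ASCs. *Gata4* was 0.703% to 0.772% of *Sox2* in WT ASCs and 2.77% to 3.31% in *Bdh2*-knockout ASCs. In both genotypes these levels were far under that of the pluripotency factor.

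Among the 14 other SOX genes tested, 2 were higher (14.3%) and 3 lower (21.4%), near the 21.0% and 20.8% of all tested genes. Their median log2 fold change was -0.16. *Sox1* and *Sox3*, SOXB1 relatives of *Sox2* that mark neural progenitors, were higher by a log2 fold change of 0.68 (adjusted p = 0.00462) and 0.65 (adjusted p = 1.55e-04). *Sox12* (-0.35, adjusted p = 2.95e-04), *Sox15* (-0.24, adjusted p = 0.00731) and *Sox11* (-0.19, adjusted p = 0.0106) were lower. The remaining 9 did not pass the test, with log2 fold changes from -0.62 (*Sox10*) to 0.22 (*Sox21*), and *Sox5* and *Sox14* were too low to be tested. The largest increase in this list, 0.68, was thus under that of *Sox17* and *Sox7*. *Sox7*, *Sox17* and *Sox18* together held 0.226%, 0.243% and 0.322% of the summed Sox TPM in WT replicates 1 to 3 and between 1.44% and 1.79% in each *Bdh2*-knockout library.

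*Foxa2*, a forkhead factor that opens chromatin in endoderm, gave 2, 10 and 8 counts in the WT libraries, and 60, 62 and 35 in the knockout. Its levels were 0.103, 0.495 and 0.316 CPM in WT ASCs and 2.18, 2.27 and 1.46 CPM in *Bdh2*-knockout ASCs. WT replicate 1 was below the level of 3 counts, and knockout replicate 3 was the lowest of its group. Its log2 fold change was 2.66 (standard error 0.38, adjusted p = 1.40e-04), and its 95% interval of 1.84 to 3.49 was the widest of the 6 genes that rose. With each library left out in turn it ranged from 2.30 to 3.13.

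The FOXA relatives of *Foxa2* were not called higher, whereas other forkhead genes were. *Foxa1* was 0.525 ± 0.245 CPM in WT ASCs and 0.471 ± 0.305 CPM in *Bdh2*-knockout ASCs (log2 fold change -0.13, adjusted p = 0.849). *Foxa3*, which is prominent in liver, was lower (log2 fold change -0.68, adjusted p = 0.00731). Per length *Foxa2* was 46.8% to 93.6% of *Foxa1* in WT ASCs and 3.96 to 9.83 times its level in *Bdh2*-knockout ASCs. These ratios rest on few counts, since *Foxa1* had 6, 16 and 12 in the WT libraries and 11, 22 and 5 in the knockout. Of all 31 tested genes that the table assigns to the forkhead family, 15 were higher (48.4%, beside 21.0% of all tested genes) and 4 were lower. *Foxa2* had the largest increase of the family, followed by *Foxq1* (log2 fold change 1.97, adjusted p = 2.44e-05) and *Foxd3* (1.73, adjusted p = 1.70e-08), and *Foxc2*, tested only through its WT libraries, fell by 2.75 on the log2 scale (adjusted p = 0.00148).

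*Hnf4a*, a nuclear receptor of visceral endoderm, liver and gut, was the one gene that went the other way. Its counts were 81, 89 and 102 in the WT libraries, and 77, 101 and 61 in the knockout. After scaling for depth this is 4.17, 4.40 and 4.03 CPM in WT ASCs and 2.79, 3.70 and 2.54 CPM in *Bdh2*-knockout ASCs. The genotypes did not overlap, with knockout replicate 2 nearest to the WT libraries. The log2 fold change was -0.47 (standard error 0.17, adjusted p = 0.0389), with a 95% interval of -0.84 to -0.11. The call was lost with DESeq2 (adjusted p = 0.116) and on leaving out any library other than knockout replicate 2. The adjusted p was 0.0767, 0.107 and 0.0552 without WT replicate 1, 2 or 3 and 0.134 and 0.159 without knockout replicate 1 or 3.

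Transcripts typical of adult hepatocytes were present in all libraries. *Alb*, which encodes serum albumin, was 330, 197 and 21.98 CPM in WT replicates 1 to 3 and 17.3, 88.2 and 8.67 CPM in *Bdh2*-knockout replicates 1 to 3. The summed level of 10 hepatocyte markers ran from 31.8 to 451 CPM in WT ASCs and from 12.5 to 121 CPM in *Bdh2*-knockout ASCs. Of these 10, edgeR called 8 lower, beside 20.8% of all tested genes, whereas DESeq2 and limma-voom called 0. The genotypes overlapped in all 10, 0 were at 0 in all libraries, and the median log2 fold change was -2.25. Within the knockout libraries, the order of *Alb* (replicate 2, then 1, then 3) was also the order of *Hnf4a*. In WT ASCs the replicate highest in *Alb*, replicate 1, was below replicate 2 in *Hnf4a*, and WT replicate 3 had less *Alb* than knockout replicate 2 but more *Hnf4a*. With the summed level of the hepatocyte markers other than *Ttr* as a covariate, on a log2 scale, the log2 fold change of *Hnf4a* was -0.31 (adjusted p = 0.245). Without the 3 libraries highest in *Alb* it was -0.59 (adjusted p = 0.0557), a fit of 1 WT library against 2 knockout libraries in which the lone WT library is assumed to vary like the knockout pair. The part of these transcripts in the *Hnf4a* result was not tested beyond these values. In the same 2 analyses *Gata4*, *Gata6*, *Sox7*, *Sox17*, *Foxa2* and *Pdgfra* were called higher, the second of them with that single WT library, where *Sox7* had a log2 fold change of 2.33.

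**Figure D3:**
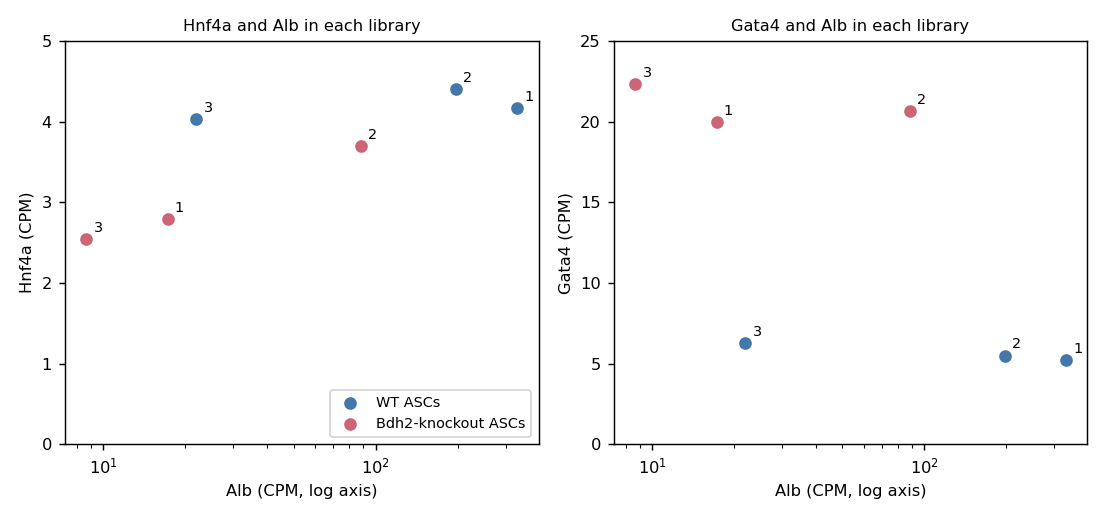
*Hnf4a* (left) and *Gata4* (right) against *Alb* in each library, in CPM, with *Alb* on a log axis and the replicate number beside each point. *Hnf4a* is lowest in knockout replicates 3 and 1, which are also lowest in *Alb*, whereas *Gata4* is at 19.97 to 22.3 CPM in the knockout libraries and at 5.20 to 6.25 CPM in the WT libraries.

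Of the other liver-enriched factors listed, *Hnf4g* was at 0 counts in every library, and *Onecut1* was too low to be tested.

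*Pdgfra*, the receptor tyrosine kinase used to sort primitive endoderm cells, gave 48, 61 and 49 counts in the WT libraries, and 226, 300 and 265 in the knockout. Its levels were 2.47, 3.02 and 1.94 CPM in WT ASCs and 8.19, 10.99 and 11.05 CPM in *Bdh2*-knockout ASCs. Knockout replicate 1 was the lowest of its group and still above every WT library. Its log2 fold change was 2.04 (standard error 0.17, adjusted p = 1.98e-06), or 4.10-fold with a 95% interval of 3.17 to 5.31.

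The other PDGF receptor moved the opposite way. *Pdgfrb*, known from pericytes and fibroblasts, was 4.45 ± 0.925 CPM in WT ASCs and 2.38 ± 0.446 CPM in *Bdh2*-knockout ASCs (log2 fold change -0.91, adjusted p = 0.00255). Per length *Pdgfra* was 23.1% to 47.6% of *Pdgfrb* in WT ASCs and 1.99 to 2.98 times its level in *Bdh2*-knockout ASCs. Among the ligands, *Pdgfc*, which binds PDGFRA, was higher (7.13 ± 0.616 against 13.2 ± 0.614 CPM, log2 fold change 0.88, adjusted p = 1.71e-05). *Pdgfa*, a ligand of the same receptor, was 121 ± 5.56 and 130 ± 9.07 CPM (log2 fold change 0.11, adjusted p = 0.165). *Pdgfb* and *Pdgfd* had log2 fold changes of 0.00 (adjusted p = 0.994) and 0.50 (adjusted p = 0.365). Of 5 other fibroblast markers tested, 0 were higher and 1 was lower, *Col1a1* (log2 fold change -0.62, adjusted p = 0.00130). Over all tested genes the shares were 21.0% and 20.8%. The summed level of the markers other than *Pdgfrb* was 26.6 to 32.5 CPM in WT ASCs and 21.6 to 27.1 CPM in *Bdh2*-knockout ASCs, and *Dcn* and *Lum* were too low to be tested.

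**Figure D4:**
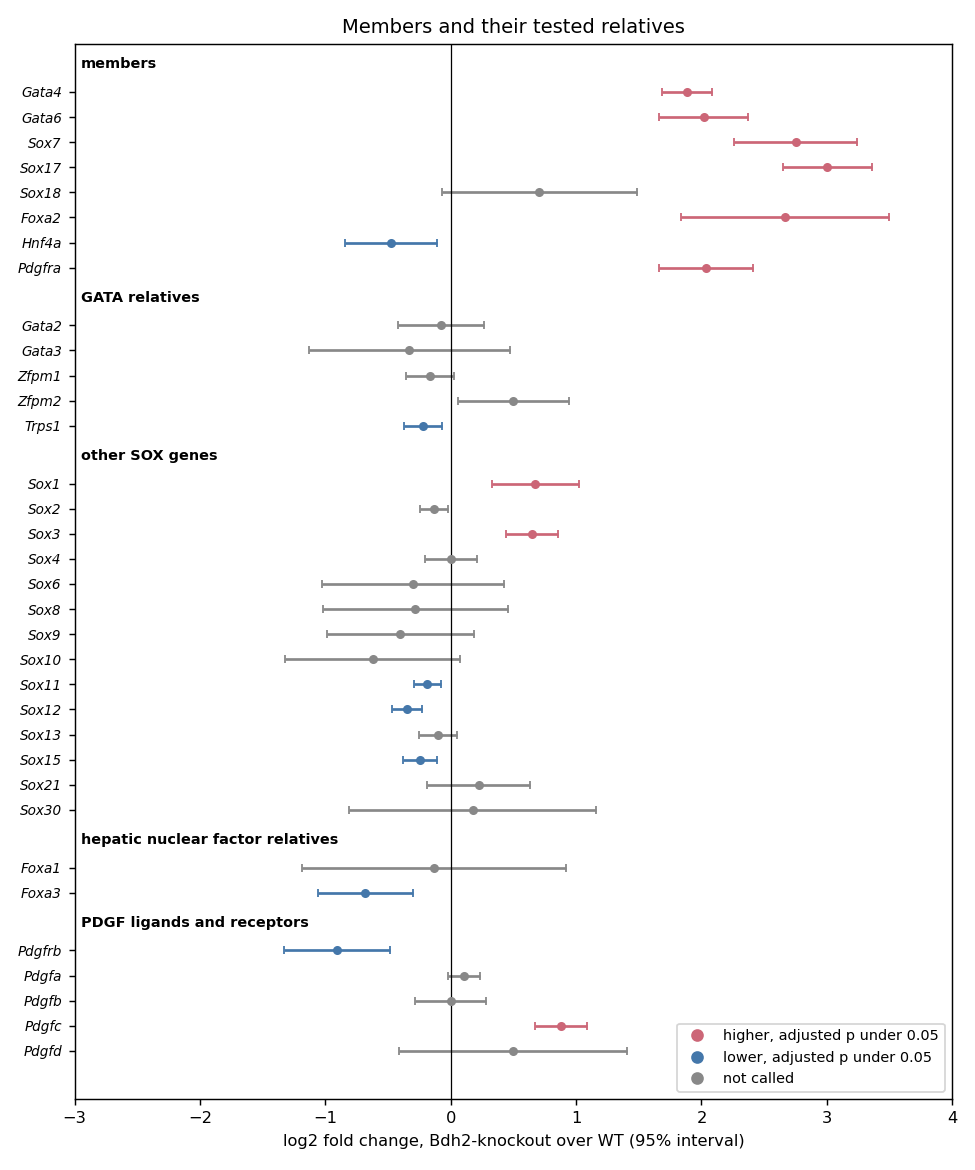
Log2 fold change of *Bdh2*-knockout over WT ASCs for the tested genes, with 95% intervals. Red points were called higher and blue points lower at an adjusted p under 0.05, and grey points were not called. *Gata4*, *Gata6*, *Sox7*, *Sox17*, *Foxa2* and *Pdgfra* lie between 1.89 and 3.00, and each relative plotted lies between -0.91 and 0.88.

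Ordered by TPM, *Gata4* stood first in WT ASCs at 4.27 ± 0.443 TPM and *Hnf4a* second at 2.57 ± 0.0915 TPM. *Sox17*, *Sox18*, *Gata6*, *Pdgfra* and *Sox7* followed between 0.790 and 0.666 TPM and could not be ordered beyond their spread. *Foxa2* was at 0.379 ± 0.242 TPM and *Gata5* at 0.0147 TPM. In *Bdh2*-knockout ASCs the order was *Gata4* (15.8 ± 1.18 TPM), *Sox17* (6.33 ± 0.946), *Sox7* (4.59 ± 0.426), *Gata6* (3.00 ± 0.288), *Pdgfra* (2.95 ± 0.526), *Foxa2* (2.43 ± 0.528), *Hnf4a* (1.83 ± 0.376), *Sox18* (1.31 ± 0.124) and *Gata5* (0.0212). *Hnf4a* thus went from the second to the seventh place. The values of *Gata6*, *Pdgfra* and *Foxa2* overlapped between libraries, those of *Sox17* and *Sox7* did not, and *Hnf4a* was above *Sox18* in each knockout library. *Sox17* gained on *Gata4*: it was 15.5% to 22.7% of *Gata4* per length in WT ASCs and 37.1% to 43.0% in *Bdh2*-knockout ASCs (two-sided exact permutation test on the log2 ratio, p = 0.1, which 3 against 3 libraries cannot go below).

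Most of the listed primitive endoderm effectors rose. Of 17, which include basement membrane components and endocytic receptors, 13 were higher, 0 were lower and 4 did not pass the test. This is 76.5% higher, beside 21.0% of all tested genes, in a list chosen with earlier results of these data known. The median log2 fold change was 1.20 against -0.01 over all tested genes. *Cubn*, the endocytic receptor cubilin, rose from 0.958 ± 0.253 to 13.2 ± 1.96 CPM (log2 fold change 3.77, adjusted p = 1.70e-08), and *Dab2*, a clathrin adaptor, had the next largest log2 fold change, 2.61 (adjusted p = 6.74e-09). At the other end, the keratins *Krt8* and *Krt18* had log2 fold changes of -0.19 (adjusted p = 0.0840) and 0.01 (adjusted p = 0.932). The number higher was 11 to 13 in the 15 alternative analyses, and 11 is the number when genes with a mean count under 50 are left out. The number lower was 0 to 1, and it was 1 in 3 of the 15.

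Of 8 parietal endoderm genes, 3 were higher (37.5%) and 1 lower (12.5%), beside 21.0% and 20.8% of all tested genes (median 0.50). *Srgn*, which encodes the proteoglycan serglycin, and *Pth1r*, the parathyroid hormone receptor, had log2 fold changes of 4.14 (adjusted p = 4.42e-07) and 3.24 (adjusted p = 3.84e-08). *Krt19* was lower (-0.48, adjusted p = 9.57e-04), and the value of *Vim* was 0.14 (adjusted p = 0.122). Of 6 tested genes used as markers of definitive endoderm or the streak that precedes it, 3 were higher (50%) and 0 lower (median 0.27). *Lhx1* and *Eomes* rose by log2 fold changes of 1.67 (adjusted p = 0.00613) and 0.88 (adjusted p = 1.23e-06), and *Tdgf1* and *Mixl1* had values of -0.10 (adjusted p = 0.326) and -0.02 (adjusted p = 0.942). *Lhx1* reached the level of the filter on low counts in 0 WT and 3 knockout libraries, so that it was tested only because it was high there. *Cer1* was at 0 counts in all 6 libraries and *Gsc* was too low to be tested.

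The secreted proteins of visceral endoderm did not follow. Of 8 tested, 0 were higher and 3 were lower (median log2 fold change -1.24), and the number lower ran from 0 to 8 over the alternative analyses, with 0 by DESeq2 and by limma-voom. *Ttr*, called lower by edgeR (log2 fold change -2.25, adjusted p = 0.0221), had 24.2, 16.03 and 2.06 CPM in WT replicates 1 to 3 and 1.63, 6.45 and 0.458 CPM in *Bdh2*-knockout replicates 1 to 3. The genotypes overlapped and the order of the libraries was that of *Alb*. *Apoa1* was also called lower (-2.04, adjusted p = 0.0255), while *Apoa2* and *Apom* had log2 fold changes of -0.38 (adjusted p = 0.102) and -0.87 (adjusted p = 0.105). These genes are also liver genes, and *Ttr* is in the hepatocyte list as well, though it was left out of the covariate. With the hepatocyte covariate 0 of them were called. That covariate includes *Alb*, whose order of libraries *Ttr* shares, so the fit cannot separate genotype from hepatocyte transcripts for such genes. The source of these transcripts was not tested. *Afp*, a visceral endoderm gene that adult liver keeps low, had 0 to 4 counts per library.

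Of 11 genes of the FGF and ERK pathway, 8 were higher (72.7%) and 1 was lower (9.09%), beside 21.0% and 20.8% of all tested genes. The median log2 fold change was 0.35, and 1 of the 11, *Fgfr2*, reached a log2 fold change of 1. *Fgfr2*, the FGF receptor enriched in primitive endoderm, rose from 1.21 ± 0.244 to 4.03 ± 0.317 CPM (log2 fold change 1.73, adjusted p = 2.24e-05), and *Dusp4*, an ERK phosphatase, rose by 0.64 (adjusted p = 1.94e-06). *Fgfr1*, another FGF receptor, was 120 ± 2.25 and 113 ± 5.49 CPM (log2 fold change -0.08, adjusted p = 0.208). *Spry4*, a feedback inhibitor, was lower (-0.16, adjusted p = 0.0310), a call kept in 8 of 15 alternative analyses.

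**Figure D5:**
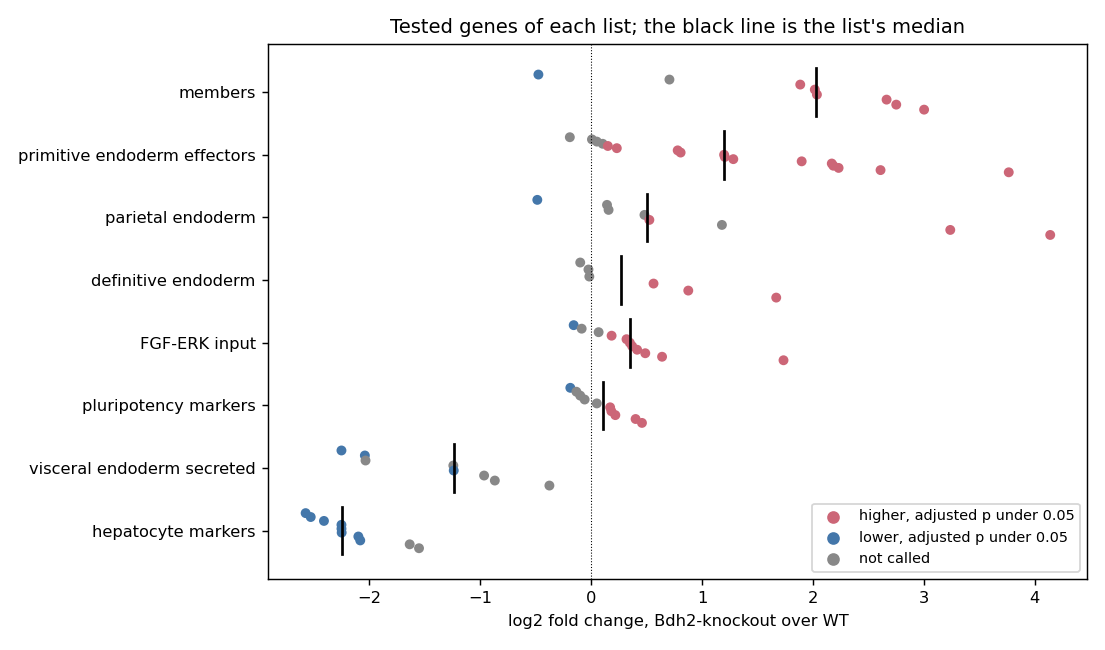
Log2 fold change of every tested gene in 8 lists, one point per gene, with the list's median as a black line. Red points were called higher, blue points lower and grey points neither at an adjusted p under 0.05. The medians are 1.20 for primitive endoderm effectors, 0.50 for parietal endoderm, 0.27 for definitive endoderm, 0.35 for FGF and ERK genes, 0.11 for pluripotency genes, -1.24 for secreted proteins of visceral endoderm and -2.25 for hepatocyte markers.

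Markers of other cell types that use these factors were checked. Beside the counts that follow, 21.0% of all tested genes were higher and 20.8% were lower. Of 6 tested endothelial genes, 2 were higher (*Esam* 4.01-fold and *Kdr* 3.37-fold) and 2 were lower (*Vwf* and *Pecam1*, log2 fold changes -1.18 and -0.54), while *Cdh5* and *Emcn* were too low to be tested. Their summed level was 74.8 to 85.4 CPM in WT ASCs and 60.1 to 62.6 CPM in *Bdh2*-knockout ASCs, and without *Pecam1*, the most abundant of them, 12.5 to 15.3 and 15.6 to 16.5 CPM. Of 5 tested cardiac and mesoderm genes, 0 were higher and 2 were lower, among them *Tnnt2* (-2.26, adjusted p = 0.00346), and their summed level was 6.84 to 8.76 and 5.49 to 5.92 CPM. Of 5 tested trophectoderm genes, 1 was higher and 2 were lower, with a summed level of 63.2 to 68.3 and 68.8 to 77.5 CPM, or 41.96 to 44.9 and 30.5 to 36.3 CPM without *Eomes*, the one that was higher. Of 10 pluripotency genes, 5 were higher and 1 was lower (median log2 fold change 0.11). *Nanog* was 332 ± 14.5 and 319 ± 6.43 CPM (log2 fold change -0.06, adjusted p = 0.361). Wherever 0 genes of a list are given as higher or lower, the covariate aside, DESeq2 and limma-voom called 0 as well. At an unadjusted p under 0.05 edgeR gave 1 gene each for the GATA relatives (*Zfpm2*, higher), the primitive endoderm effectors (*Krt8*, lower) and the fibroblast markers (*Col1a2*, higher), and 0 for the others.

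The profiles most like those of *Gata4*, *Sox17* and *Pdgfra* were sought over the 6 libraries among genes with a mean of at least 1 CPM, by the root mean square difference of their mean-centred log2 CPM. For *Gata4* these were *Pim2*, a serine/threonine kinase (0.111), *Efnb2*, the ligand ephrin B2 (0.119), and *Ankrd33b* (0.122). For *Sox17* they were *Dab2* (0.170), *Pth1r* (0.211) and *Shisa6* (0.261). For *Pdgfra* they were *Tmem54* (0.116), the FGF coreceptor *Klb* (0.134) and a gene listed without a symbol (0.137). *Dab2* rose from 2.41 ± 0.127 to 14.8 ± 0.742 CPM and *Pth1r* from 0.916 ± 0.242 to 8.85 ± 0.246 CPM. All 6 libraries enter the measure and the genotypes separate them. The scale adds 0.5 CPM, which shrinks the change of low genes: *Klb* and *Tmem54* had log2 fold changes of 3.11 and 2.46 in the edgeR fit, against 2.04 for *Pdgfra*.

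The 9 genes lie on 5 chromosomes. In the table, *Gata4* spans chr14:63198922-63271692 on the minus strand and *Sox7* chr14:63943673-63950732 on the plus strand. *Sox17* spans chr1:4490931-4497354 on the minus strand, and *Pdgfra* spans chr5:75152292-75198215 on the plus strand. On chromosome 2, *Foxa2* spans 148042877 to 148046969 and *Gata5* 180325133 to 180334699 on the minus strand. *Sox18* spans 181669836 to 181671640 on the minus strand and *Hnf4a* 163506808 to 163572910 on the plus strand. *Gata6* spans 11052508 to 11085635 on the plus strand of chromosome 18, where the GENCODE annotation starts at 11052064. The other 8 have the same ends in both.

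*Gata4* and *Sox7* are 672 kb apart, and of the 6 tested genes between them 3 were higher and 0 lower (*Xkr6* 0.58, *Mtmr9* 0.29 and *Tdh* 0.21), with a median log2 fold change of 0.21. Over all tested genes 21.0% were higher and 20.8% lower. Within 50 kb of the starts of the 6 genes that rose, 0 other genes had enough counts to be tested, and 5 were tested within that distance of *Gata5*, *Sox18* and *Hnf4a*. *Rbbp8nl*, 44.8 kb from the start of *Gata5*, was called higher (log2 fold change 1.80, adjusted p = 0.00156) and reached the filter level in 1 WT and 3 knockout libraries, while *Gata5* did not rise above counting error. Near *Sox18*, *Rgs19* was higher (0.27, adjusted p = 0.0116) and *Tcea2* lower (-0.55, adjusted p = 0.0115). Near *Hnf4a*, *Fitm2* and *R3hdml* had log2 fold changes of -0.04 (adjusted p = 0.723) and 0.12 (adjusted p = 0.763). Genes on the other strand overlap *Sox17*, *Gata5*, *Gata6* and *Pdgfra* in their exons, and whether the counting used strand is not given in the sources used here. *Gm37587*, which covers 16.8% of the exon bases of *Sox17*, and *Gm42802*, antisense to *Pdgfra*, had 0 counts in every library, and *Gata5os* had 1 count in all 6 together. The gene opposite *Gata6*, *1010001N08Rik*, had 0, 4 and 1 counts in the WT libraries, and 2, 5 and 1 in the knockout.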

How the data were processed

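Total RNA of 3 WT and 3 *Bdh2*-knockout ASC libraries was sequenced on an Illumina instrument. After trimming and quality filtering, the authors aligned reads to GRCm38 with HISAT2 2.0.5 (version per the labels), assigned them to genes with FeatureCounts, and deposited the raw counts of 54715 genes beside each gene's length and position. The annotation release, the treatment of reads with several matches and the use of strand are not given in the sources used here.

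Genotypes were compared by the quasi-likelihood test of edgeR 4.0.16 in R 4.3.3 (TMM scaling, filterByExpr defaults, no covariate, two-sided, Benjamini-Hochberg adjustment over 16758 genes, threshold 0.05). CPM used the TMM-scaled library size, and TPM used the listed length, which joins the exons of a gene. Profiles were compared on log2 (CPM + 0.5). Single values of 3 against 3 libraries had a two-sided exact permutation test. Figures were made with Python 3.11.15 and matplotlib 3.10.9. The fits were tested on simulated counts.

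Alternatives were DESeq2 1.42.0, limma-voom 3.58.1, other scalings and filters, FPKM on the TMM-scaled library size, the replicate number as a block and each library left out. A hepatocyte covariate and the fit without the 3 libraries highest in *Alb* were added after seeing the data. Some listed genes are not reported here and were taken out of the lists. The members and gene lists were chosen with earlier results of these data known. Named are the 9 genes, their relatives, neighbours within 50 kb, the 3 genes of nearest profile for *Gata4*, *Sox17* and *Pdgfra*, *Bdh2*, *Alb*, and up to 4 genes of each other list, mostly the 2 largest and 2 smallest fold changes. *Nanog*, *Afp*, *Cer1*, *Gsc*, *Col1a1*, *Col1a2*, *Dcn*, *Lum*, *Cdh5*, *Emcn*, *Tnnt2*, *Onecut1*, *Hnf4g*, *Xkr6*, *Mtmr9*, *Tdh*, *Ihh*, *Apoh*, *Foxc2*, *Foxq1*, *Foxd3*, *Vwf* and *Pecam1* were named after their values were seen.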

Additional observations from a re-analysis of the deposited data

How the results depend on the processing

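*Gata4*, *Gata6*, *Sox7*, *Sox17*, *Foxa2* and *Pdgfra* stayed higher and past the threshold in every alternative that tested them, and *Sox18* stayed short of it. *Foxa2* and *Sox18* were not tested when a mean count of at least 50 was asked for, and *Gata5* was at or under 3 counts throughout, so no alternative value is given for it. Over the 15 alternatives the log2 fold change ran from 1.75 to 1.97 for *Gata4*, 1.94 to 2.13 for *Gata6*, 2.33 to 3.14 for *Sox7*, 2.88 to 3.10 for *Sox17*, 2.30 to 3.13 for *Foxa2*, 1.87 to 2.30 for *Pdgfra* and 0.31 to 1.03 for *Sox18*.

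*Hnf4a* kept its direction but lost its call with DESeq2 (-0.46), the hepatocyte covariate (-0.31) and without the 3 libraries highest in *Alb* (-0.59, a larger fold change, from 1 WT against 2 knockout libraries), and with single libraries left out it ranged from -0.65 to -0.36. The number of members called lower was accordingly 0 with DESeq2, the covariate and without those 3 libraries, and 0 to 1 with single libraries left out. That fit has fewer samples, and for the others the cause was not tested. Of 278 other values, 242 moved little (counts by at most 1.5 times, levels per length by less than 1 SD), and the remaining 36 were counts of small lists.

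The same replicate number did not pair the libraries: same-numbered libraries deviated from their group means with correlations of -0.15, 0.10 and 0.24, and WT replicate 1 went best with knockout replicate 2 (0.31). With the number as a block 3235 genes were higher and 3217 lower, *Hnf4a* was at -0.49 (adjusted p = 0.0357), and no call of a member changed. Scaling by library totals alone gave 2734 higher and 4440 lower genes against 3518 and 3478. DESeq2 called 3175 higher and 2497 lower. Counts were lowest for *Gata5*, *Sox18* and the WT level of *Foxa2*, and depth was not varied.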
